A study of Mus musculus with 15 samples.

Results

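The Peg3 imprinted domain lies on mouse chromosome 7 and was named here by 4 genes, Peg3, Usp29, Zim1 and Zfp264, which were taken because they neighbour one another. Of these, 3 (Peg3, Usp29 and Zim1) were found among the 26061 rows of the gene table, and all 3 passed the filter on low values with 19490 genes in all. Zfp264, a zinc finger gene of the same domain, matched no row and was not analysed here. The domain was chosen by the lower Peg3 values of the shTet1 libraries, so every Peg3 difference is given as a description, without a test, while Usp29 and Zim1 were tested.

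In imprinted domains, only the copy of a gene inherited from a given parent is transcribed. Peg3 encodes a large zinc finger protein and Usp29 a ubiquitin-specific peptidase, and both are known to be transcribed from the paternal chromosome, in opposite directions, out of a shared promoter region that carries DNA methylation on the maternal copy. Zim1, a further zinc finger gene close to the far end of Peg3, is known for transcription from the maternal copy. TET1 and TET2 are enzymes that oxidise methylated cytosine. The RNA values used here do not separate the parental copies, so that they give the sum over both alleles.

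The cells were mouse embryonic stem cells (ESCs) of the line E14, on the 129/Ola background, grown without feeders on gelatin in serum with LIF. All 3 groups of 5 libraries carried a lentiviral hairpin vector and were selected with puromycin for 3 days: shScr expressed a scrambled control hairpin, shTet1 a hairpin against Tet1 and shTet2 a hairpin against Tet2. Total RNA depleted of rRNA was sequenced in a directional protocol, after extraction by either of a pair of methods that the labels do not assign to libraries. All libraries came from 1 cell line, and nothing states that replicates were separate infections, so p-values measure only the spread between these libraries, which may be technical.

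Gene reads per library ranged from 15258291 to 35432425. Tet1 was at 27.8% of the shScr mean in shTet1 and Tet2 at 26.6% in shTet2, with no overlap between the targeted group and the control in either case. The 8 ESC markers summed to between 89730 and 139000 normalised reads in every library, against 69.0 to 210 for the 6 fibroblast markers (Lum at 0 throughout), 28.5 to 321 for the 4 primitive endoderm markers, 50.01 to 177 for the 4 trophoblast markers and 969 to 1987 for the 3 neural markers in the table (Sox1 was not among its rows). Reads in 1439 olfactory and vomeronasal receptor genes took 53.3 to 63.4 RPM (reads scaled to library totals) in 4 libraries (shScr replicate 4, shTet1 replicates 3 and 4 and shTet2 replicate 4) and 9.43 to 26.3 RPM in the other 11.

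In the mm9 assembly with the GENCODE annotation, Zim1 spans chr7:6628154-6649161 and Peg3 chr7:6656603-6683132, both on the minus strand, so that Zim1 lies 33.97 kb from the Peg3 start on the side into which Peg3 is transcribed. The Usp29 model of that annotation is a lone exon at chr7:6913871-6916480 on the plus strand, 230.7 kb from the Peg3 start on the opposite side. No exon base of the 3 genes overlapped an exon of the other strand. Of the 50-base stretches in their protein-coding transcripts, 0% occurred in a protein-coding transcript of another gene, and other sequence was not searched. The outermost RefSeq starts of Peg3 and Usp29 (GRCm38.p6) leave 96 bases between them, and 3 of the 4 members were present in the RefSeq promoter table. These bases, at chr7:6730463-6730558, are shown on the plus strand because Peg3 and Usp29 diverge from them, with the CCAAT boxes in capitals:
between Peg3 and Usp29: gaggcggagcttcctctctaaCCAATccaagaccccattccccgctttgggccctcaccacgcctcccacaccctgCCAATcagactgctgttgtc
before Zim1: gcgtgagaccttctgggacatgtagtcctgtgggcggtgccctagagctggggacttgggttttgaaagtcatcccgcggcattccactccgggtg
The other run is the same length of sequence directly before Zim1, at chr7:6696433-6696528 on the minus strand, shown for contrast with a gene that starts elsewhere. The stretch between Peg3 and Usp29 held 2 matches of CCAAT (searched on both strands, with ATTGG as its reverse), a motif with at least 1 match in 18.3% of 32851 promoter windows of this length. It held no match of the CRE (TGACGTCA), found in 1.14% of windows, and none of the YY1 core (GCCATNTT, reverse AANATGGC), found in 1.38%. The window before Zim1 held no match of the 3 motifs. CpG dinucleotides numbered 3 between Peg3 and Usp29 and 5 before Zim1, and 50.4% and 38.2% of windows held at least as many.

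Matches of the YY1 core, the recognition sequence of the zinc finger factor YY1, were found inside Peg3 instead. The first 4 kb of the gene in mm9 held 12, all of them within its first intron (chr7:6679286-6682968), between 826 and 3114 bases from the start, and all 12 read GCCATNTT on the strand of Peg3. Over 22378 protein-coding genes the median was 1 match in such a window and the highest count was 46. Only 15 of them, or 0.067%, held 12 or more, and 52% held any. The window held 116 CpG dinucleotides, a number reached by 17.8% of genes. A 300-base stretch of the intron with 3 of the matches in capitals, chr7:6680974-6681273 on the minus strand, shows the repeated motif:
Peg3 first intron: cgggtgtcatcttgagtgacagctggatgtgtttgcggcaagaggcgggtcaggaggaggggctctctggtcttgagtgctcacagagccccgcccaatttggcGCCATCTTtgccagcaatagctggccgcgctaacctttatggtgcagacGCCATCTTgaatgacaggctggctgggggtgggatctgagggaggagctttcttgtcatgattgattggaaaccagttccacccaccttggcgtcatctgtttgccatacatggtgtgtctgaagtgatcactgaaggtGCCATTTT
Binding of YY1 and DNA methylation were not measured in these RNA libraries.

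Peg3 was the most highly expressed of the domain's genes, and its values stood lower in the shTet1 libraries. The values below are the authors' variance-stabilised levels on a log2 scale, with replicates 1 to 5 in order. In shScr, Peg3 stood at 11.55, 11.93, 11.58, 11.72 and 11.61. In shTet1 it stood at 10.42, 10.61, 11.01, 10.67 and 10.73, and in shTet2 at 11.41, 11.89, 12.40, 11.66 and 11.87. Every shTet1 library lay below every shScr and every shTet2 library, whereas the shScr and shTet2 ranges overlapped.

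Mean Peg3 levels were 11.68 ± 0.15 (SD, n = 5) for shScr, 10.69 ± 0.22 for shTet1 and 11.85 ± 0.37 for shTet2. The difference of shTet1 from shScr was -0.99 on the log2 scale (95% interval -1.33 to -0.65) and that of shTet2 from shTet1 was 1.16 (0.82 to 1.501). In normalised reads, which undo the transformation, shScr held 3249 ± 365, shTet1 1626 ± 255, or 50.04% of shScr, and shTet2 3752 ± 1012, or 115%. shTet1 was lower than shScr in 5 of 5 same-numbered pairs. In bulk RNA, fewer cells with the transcript and less transcript per cell cannot be told apart.

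Between shTet2 and shScr, Peg3 differed by 0.17 (95% interval -0.16 to 0.51), and this comparison shares its control libraries with the one by which the domain was chosen. The difference was 0.04 without shTet2 replicate 3 and 0.28 without shTet2 replicate 1, its lowest and highest values as single libraries were left out. Between replicates, Peg3 was more variable in shTet2 than in the other groups, and the highest value of all 15 libraries was shTet2 replicate 3, the library with the fewest gene reads.

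Within groups, Peg3 values went down as gene reads went up. Deviations from the group means had r = -0.789 with the log2 of gene reads over the 15 libraries, and within the groups r was -0.791 (shScr), -0.887 (shTet1) and -0.765 (shTet2), from 5 libraries each. Receptor reads had r = 0.188 with the Peg3 deviations. The part of depth in the Peg3 values was not tested.

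**Figure D1:**
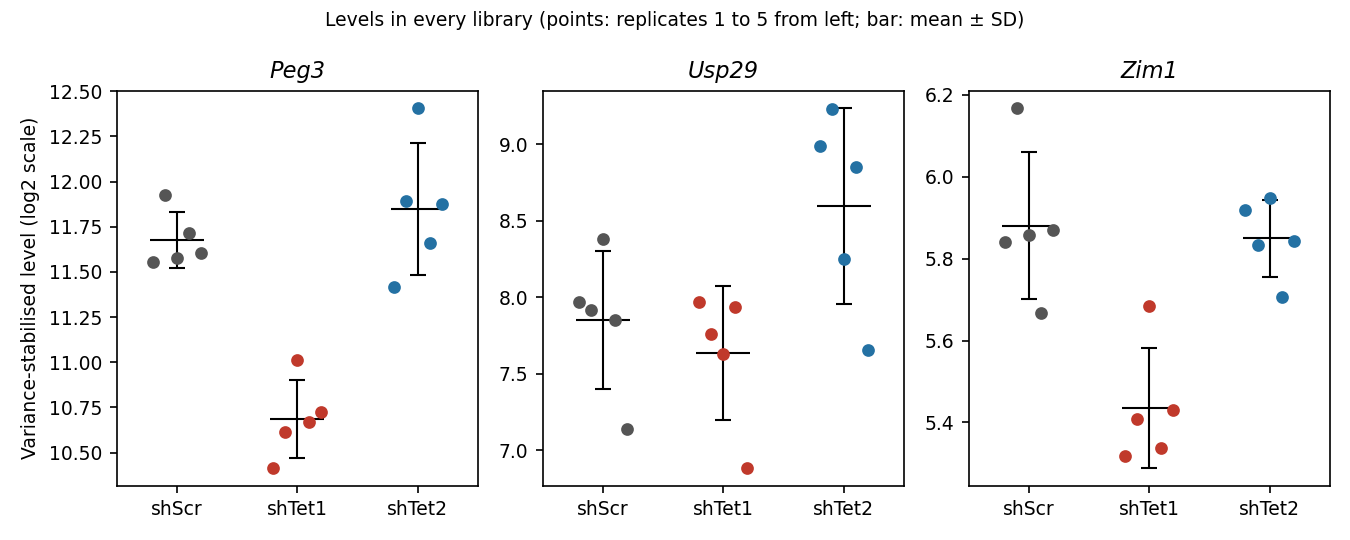
Variance-stabilised level (log2 scale, y axis, not starting at 0 and scaled to each gene) of Peg3, Usp29 and Zim1 in shScr, shTet1 and shTet2 (x axis), 1 point per library in replicate order and bars for the mean and SD of 5 libraries. The shTet1 points of Peg3 (10.42 to 11.01) lie apart from both other groups, the shTet2 points of Usp29 spread from 7.66 to 9.23, and Zim1 in shTet1 overlaps shScr by 1 library.

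For Usp29, which diverges from the same promoter region, the shTet1 libraries did not lie apart from shScr as they did for Peg3. Its shScr levels were 7.97, 7.92, 8.38, 7.85 and 7.14, the shTet1 levels 7.97, 7.76, 7.63, 7.94 and 6.89, and the shTet2 levels 8.99, 9.23, 8.25, 8.85 and 7.66. The shTet1 and shScr ranges largely coincided, with shTet1 lower in 4 of 5 same-numbered pairs. In shTet2, 3 of the 5 libraries lay above every library of the other groups. Replicate 5 was the lowest library in each group.

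Mean Usp29 levels were 7.85 ± 0.45 (SD, n = 5) for shScr, 7.64 ± 0.44 for shTet1 and 8.60 ± 0.64 for shTet2. In normalised reads shTet1 was at 83.5% and shTet2 at 186% of shScr. The difference between shTet1 and shScr was -0.22 (95% interval -0.81 to 0.38, limma adjusted p = 0.842, two-sided exact permutation p = 0.437), and it was -0.39 without shScr replicate 5 and -0.03 without shTet1 replicate 5, the lowest library of each group. The lower bound of this interval, -0.81, lies above the Peg3 difference of -0.99 but inside the interval of that difference, and the difference between the genes was not tested.

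In shTet2, Usp29 did not pass the threshold against either group in the fit without a block. Against shScr the difference was 0.74 (95% interval 0.14 to 1.34, limma adjusted p = 0.296, exact permutation p = 0.0714), and against shTet1 it was 0.96 (0.36 to 1.56, limma adjusted p = 0.0675, exact permutation p = 0.0317), with shTet2 higher in 5 of 5 same-numbered pairs. With the replicate number as a block, both differences passed (limma adjusted p = 0.0223 against shScr, where the numbers did not pair all libraries, and 0.00141 against shTet1). The block also raised the number of all genes called, from 76 to 840 against shScr and from 827 to 2178 against shTet1. Against shTet1, Usp29 also passed with array weights (1.04, limma adjusted p = 0.0312), where 1246 genes were called. It passed there too without shTet2 replicate 5, the lowest library of its group (1.19, adjusted p = 0.0142), where 791 were called.

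The 3 shTet2 libraries with the highest Usp29 levels, replicates 1, 2 and 4, with 594, 734 and 745 reads of the gene, were also the 3 of that group with the most gene reads. The other 2, replicates 3 and 5, held 181 and 148. Deviations of Usp29 from the group means had r = 0.398 with the log2 of gene reads and 0.617 with the median level of a library, over 15 libraries. Without replicates 1, 2 and 4 of shTet2, the Usp29 difference was 0.10 against shScr (interval -0.59 to 0.79). Against shTet1 it was 0.32 (-0.38 to 1.01). That refit removed the deepest shTet2 libraries and those highest in Usp29 together, so it cannot separate depth from level. The part of depth in the Usp29 values was not tested.

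Zim1 had the fewest reads of the 3 genes, between 11 and 37 per library. Its shScr levels were 5.84, 6.17, 5.86, 5.67 and 5.87, the shTet1 levels 5.32, 5.41, 5.68, 5.34 and 5.43, and the shTet2 levels 5.92, 5.83, 5.95, 5.71 and 5.84. The shTet1 libraries were the low ones: 4 of 5 lay under every other library, and replicate 3, at 5.68, lay just above the lowest shScr library and under all of shTet2. This replicate was also the highest shTet1 library for Peg3. Zim1 deviations from the group means had r = -0.498 with the log2 of gene reads and -0.702 with the median level of a library, over 15 libraries. The part of depth in the Zim1 values was not tested.

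Mean Zim1 levels were 5.88 ± 0.18 (SD, n = 5) for shScr, 5.44 ± 0.15 for shTet1 and 5.85 ± 0.09 for shTet2. The shTet1 difference from shScr was -0.44 (95% interval -0.74 to -0.15), lower in 5 of 5 same-numbered pairs, and did not pass over all genes (limma adjusted p = 0.188, exact permutation p = 0.0159). With the replicate number as a block it did not pass either (limma adjusted p = 0.0579). That block raised the number of all genes called from 14 to 935. Near the bottom of the transformed scale a difference is compressed: in normalised reads shTet1 was at 13.9 ± 3.8 against 27.5 ± 6.9 in shScr, or 50.4%, and on the log2 of reads over the library total the difference was -0.93 (-1.56 to -0.29, adjusted p = 0.223).

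shTet2 differed from shScr in Zim1 by -0.03 (95% interval -0.33 to 0.26, limma adjusted p = 0.965, exact permutation p = 0.825), with 94.8% of the control's normalised reads. Between shTet2 and shTet1 the difference was 0.41 (0.12 to 0.71). The groups did not overlap, and the share of all genes with such groups was not counted. The exact permutation p of 0.00794 was the smallest that 5 against 5 libraries allow. The limma adjusted p was 0.118, or 0.0482 with the replicate number as a block. The block raised the number of all genes called in this comparison from 827 to 2178.

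In the fit on group alone over all 15 libraries, 0 of the 2 tested members (Usp29 and Zim1) passed in shTet1 against shScr, where 0.0718% of all genes passed, 0 of 2 in shTet2 against shScr, where 0.39% passed, and 0 of 2 in shTet2 against shTet1, where 4.24% passed. At an unadjusted p under 0.05 the same fit gave Zim1 in the first, Usp29 in the second and both in the third, beside 11.8%, 11.6% and 15.7% of all genes. The comparisons share libraries, so these are not separate lines of evidence, and 6 exact tests were run over Usp29 and Zim1.

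Compared per length, the order of the levels was Peg3, Usp29 and Zim1 in every library. In shScr, Peg3 stood at 244 ± 27.4 normalised reads per kb of annotated exon, Usp29 at 77.9 ± 26.1 and Zim1 at 7.55 ± 1.90 (SD, n = 5), and neighbours in this order did not overlap. The shTet1 values were 122 for Peg3, 65.0 for Usp29 and 3.81 for Zim1, and the shTet2 values 282, 145 and 7.16. In shTet2 the Peg3 range (202 to 404) and the Usp29 range (63.4 to 216) overlapped between libraries. The lengths behind these levels, 13314 bases for Peg3, 2610 for Usp29 and 3641 for Zim1, are those of GENCODE, and the gene models under which the reads were counted are not given in the sources used here.

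Ratios within a library show the balance between the genes free of its scaling. The level of Peg3 per kb over that of Usp29 ranged from 1.99 to 5.71 among the shScr libraries (median 3.36), from 1.22 to 3.89 among shTet1 (median 1.66) and from 1.12 to 4.40 among shTet2 (median 1.47), so that all ranges overlapped. The level of Peg3 over that of Zim1 was 27.1 to 45.6 (median 31.5), 27.1 to 38.1 (median 33.2) and 25.8 to 49.8 (median 40.6). The shTet1 ratios of Peg3 to Zim1 thus lay inside the shScr range, while Peg3 and Zim1 each stood near 50% of shScr in normalised reads.

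**Figure D2:**
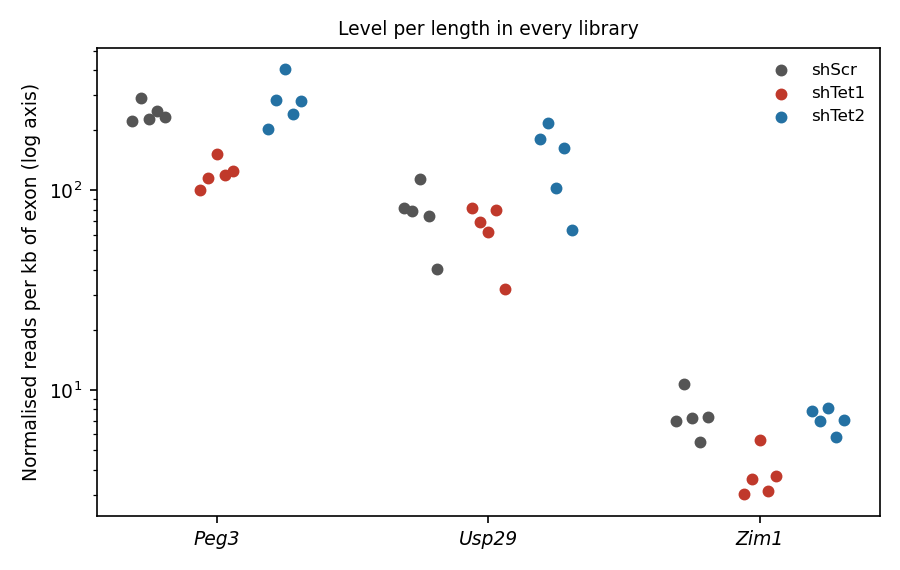
Normalised reads per kb of annotated exon (y axis, log scale) of Peg3, Usp29 and Zim1 (x axis), 1 point per library, 5 per group in replicate order. Peg3 is highest and Zim1 lowest throughout, with shScr means of 244 and 7.55.

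Genes around the domain were counted next, from the 27 other genes annotated within 500 kb of Peg3. Of these, 23 were rows of the table and 14 were tested. None passed in any comparison (limma), while at an unadjusted p under 0.05 there were 3 for shTet1 and 0 for shTet2 when set against shScr, and 4 between the depleted groups, beside 11.8%, 11.6% and 15.7% of all genes. Their median difference was -0.04 in shTet1 and 0.05 in shTet2 against shScr, beside 0.01 and 0.04 over all genes tested.

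In shTet1 the flanking genes at an unadjusted p under 0.05 did not share a direction, and they were chosen after their values were seen. Aurkc, which encodes an Aurora kinase of meiosis and lies beyond Usp29, was at 0.79 (95% interval 0.24 to 1.33, limma adjusted p = 0.216). The zinc finger gene Zfp28 was at -0.66 (-1.09 to -0.23, adjusted p = 0.183) and Zfp667, also a zinc finger gene, at 0.35. No flanking gene had non-overlapping groups, and the share of all genes with such groups was not counted.

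**Figure D3:**
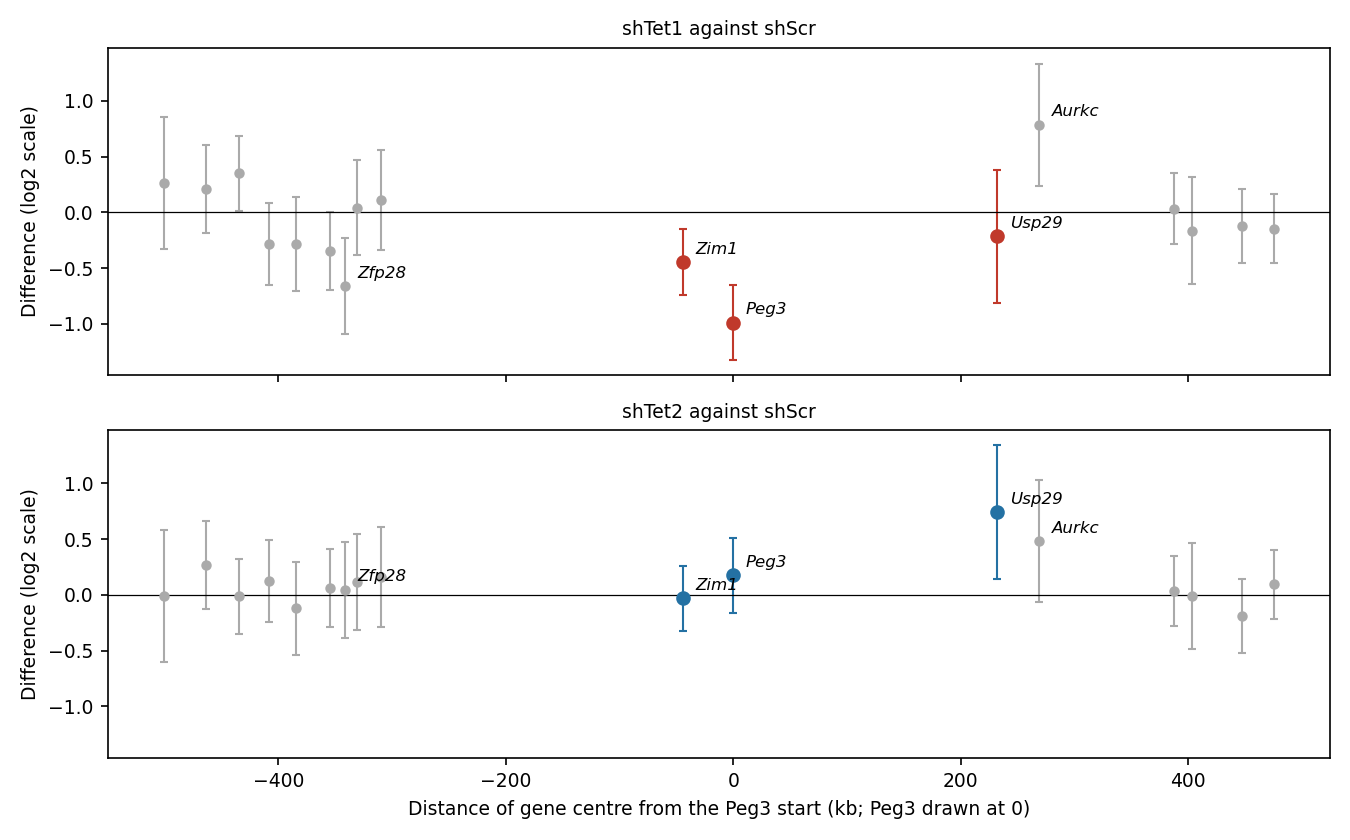
Difference on the log2 scale (y axis) with its 95% interval for the 3 members (coloured) and the 14 flanking genes tested (grey), by the distance of the gene's centre from the Peg3 start in kb (x axis, Peg3 drawn at 0), for shTet1 and shTet2 against shScr. Peg3 at -0.99 is the lowest point of the shTet1 panel, and Usp29 is drawn at its lone annotated exon.

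The genes with patterns most like Peg3 over the 15 libraries were then named, by Pearson's r among 7871 tested genes with a mean level of at least 8. Predicted genes, named by Gm and a number or ending in Rik, were left out of this set. Its top genes were Tet1 (r = 0.96), Wnk3-ps (0.94), Map2k4 (0.91), Slc35b4 (0.91) and Ccng1 (0.91), the 5 of the set over 0.9. The median over the set was -0.04. Since Peg3 was chosen for its shTet1 values, genes with a group difference of that shape rank high by construction, and no test is given. Against shScr, Ccng1, which encodes a cyclin, differed by -0.97 in shTet1 and 0.05 in shTet2, and Map2k4, which encodes a kinase of the JNK cascade, by -0.81 and 0.06.

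Tet1 and Peg3 also varied together inside the groups. After removal of the group means, r between them was 0.897 over 15 libraries, at rank 6 among the 7871 genes, with Spearman's rho of 0.689, and 0.715 without the 2 libraries farthest from the median. Inside shScr alone it was 0.759, inside shTet1 0.677 and inside shTet2 0.987, from 5 libraries each. In the shTet2 group both genes were highest in replicate 3 (Tet1 at 14.62, Peg3 at 12.40) and lowest in replicate 1 (13.28 and 11.41). These points share library depth, with which Peg3 also varied. Of the 7871 genes, 5% had an r of deviations above 0.622.

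The other members were set against Peg3 in the same way. For Zim1, r with Peg3 was 0.869 over all libraries and 0.525 after removal of the group means, or 0.268 without the 2 farthest libraries. Inside shTet1 alone the r of Zim1 with Peg3 was 0.92, inside shScr 0.641 and inside shTet2 0.367. For Usp29, r with Peg3 was 0.362 over all libraries, -0.335 after removal of the group means and -0.429 without the 2 farthest. With Tet1, the r of deviations was 0.383 for Zim1 and -0.209 for Usp29.

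**Figure D4:**
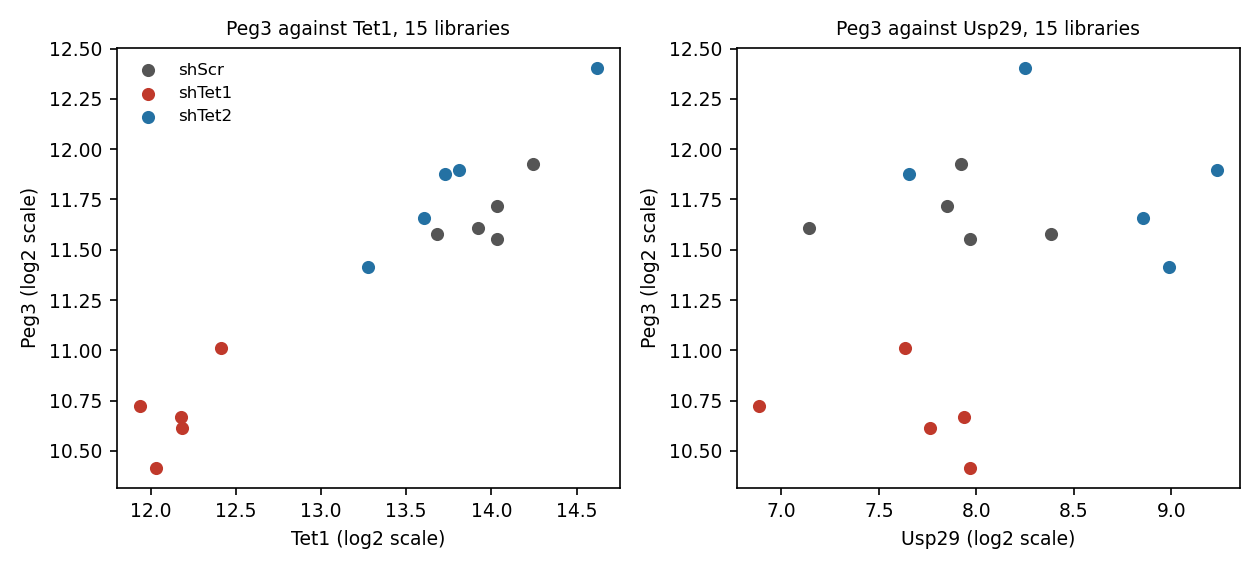
Level of Peg3 (y axis, log2 scale) against that of Tet1 and of Usp29 (x axes, log2 scale) in the 15 libraries, coloured by group. Peg3 and Tet1 lie along a common line (r = 0.96), with the shTet1 libraries in the lower left, whereas Peg3 and Usp29 do not (r = 0.362).

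A list of 12 factors that maintain or establish DNA methylation at imprinted regions, or bind there, was all measured and tested. In shTet1 against shScr, 0 of 12 passed, beside 0.0718% of all genes, and in shTet2 against shScr 1 passed, beside 0.39%. At an unadjusted p under 0.05 (limma) there were 1 and 3, beside 11.8% and 11.6% of all genes. The gene that passed was Dppa3, which encodes a protein that protects maternal methylation marks in the early embryo. It stood at 1.41 in shTet2 (95% interval 0.81 to 2.01, limma adjusted p = 0.0372) and at 1.07 in shTet1 (adjusted p = 0.126). The Dppa3 call was lost when any of 8 of the 10 libraries was left out, all but shScr replicate 3 and shTet2 replicate 4, while the difference lay between 1.20 and 1.64 (adjusted p 0.0251 to 0.129 over all 10). It was also lost without the 3 deepest shTet2 libraries (1.39, adjusted p = 0.604). In shTet2 against shTet1, 0 of 12 passed, beside 4.24% of all genes, and 1 had an unadjusted p under 0.05 (limma), beside 15.7%.

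Zfp57 and Zfp445, zinc finger proteins that protect methylated imprints, stood at -0.54 (limma adjusted p = 0.310) and -0.39 (adjusted p = 0.184) in shTet2 against shScr. The median difference of the list was -0.09 in shTet1 and -0.02 in shTet2, against 0.01 and 0.04 over all genes tested.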

How the data were processed

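E14 RNA was sequenced by the authors in 15 libraries, 5 per group by the labels. Per the labels and methods, the authors trimmed reads with Trim Galore 0.3.3, aligned them to mm9 with TopHat2 2.0.9, counted reads per gene and deposited DESeq2 variance-stabilised values on a log2 scale. The DESeq2 version and the gene models are not given in the sources used here. The lowest value, 4.25, stands for 0 reads. Undoing the transformation returned whole reads (tolerance 0.05) for 100% of values above it, so reads, library totals and normalised reads (reads over the library's size factor) could be given. Library totals set the precision, and reads were not counted by molecule.

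The deposited log2 values were fitted with limma 3.58.1 (R 4.3.3, trended prior, group as the term, all 15 libraries, no block), over genes above the minimum in at least 5 of 15 libraries, with Benjamini-Hochberg adjustment over all 19490 and a threshold of 0.05. Tests are two-sided, and the fit was tested on simulated data. Peg3 was left untested in all comparisons, since its shScr values also entered the choice of the domain. Exact permutation tests used scipy 1.17.1. The deposited values are on a log scale, so limma was used, and a count model was not run on the recovered reads. Same-numbered libraries deviated together in shTet1 against shScr (r 0.374 to 0.657) and shTet2 against shTet1 (0.33 to 0.731) in 5 of 5 pairs, but in 4 of 5 in shTet2 against shScr (0.00789 to 0.769). The pairing comes from these correlations, not from the labels.

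The members, gene lists and tests were chosen with earlier results of these data known. Named genes were the members, flanking genes within 500 kb, fixed lists, and the 5 genes most correlated with Peg3. Promoter sequences and motif windows came from RefSeq (GRCm38.p6) and mm9 with GENCODE vM1. The table of repeat classes was not used here. Alternatives changed the filter, prior, scaling, unit, weights, block and libraries.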

Additional observations from a re-analysis of the deposited data

How the results depend on the processing

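The difference of Peg3 between shTet1 and shScr kept its sign under the 22 alternatives run, between -1.23 and -0.83, with -1.23 in replicates 1 and 2 alone, and that between shTet2 and shTet1 lay between 1.02 and 1.45 over 23. Peg3 in shTet2 against shScr turned to -0.0845 in replicates 1 and 2 alone. Zim1 in shTet2 against shScr turned to 0.0195 on reads over the library total, 0.0327 in replicates 3 to 5 alone and 0.0143 without the 3 deepest shTet2 libraries, and ranged from -0.0843 to 0.0404 as single libraries were left out (0.0404 without shScr replicate 2, 0.00495 without shTet2 replicate 4). With the replicate block, Usp29 in shTet2 passed against shScr (0.74, adjusted p = 0.0223, although its pairs did not all correlate) and against shTet1 (0.96), as Zim1 did against shTet1 (0.41). The block changed no other call of a member. Usp29 in shTet1 against shScr ranged from -0.39 to -0.03, and Peg3 in shTet2 against shScr from 0.04 to 0.28, as single libraries were left out. Usp29 in shTet2 against shTet1 also passed with array weights (1.04, adjusted p = 0.0312), and ranged from 0.77 to 1.19 as single libraries were left out. Without the 3 deepest shTet2 libraries, Usp29 in shTet2 fell to 0.10 against shScr (limma adjusted p = 0.981). Against shTet1 it fell to 0.32 in that setting (limma adjusted p = 0.744). Dppa3 passed in 8 of 23 alternatives. The causes of these changes were not tested.

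Counts of called genes moved further than the members. For shTet1 against shScr, 14 became 22 after quantile normalisation, 56 with array weights, 935 with the replicate block, 3 with only those groups, 0 in replicates 1 and 2 or 3 to 5 alone (fewer libraries), 1 without the 4 libraries of high receptor share, and 1 to 171 as single libraries were left out. For shTet2 against shScr, 76 became 39 after median centring, 45 after quantile normalisation, 33 on reads over the library total, 283 with array weights, 840 with the block, 0 and 1 in replicates 1 and 2 and 3 to 5 alone, 1 without the 3 deepest shTet2 libraries, 13 without the 4 of high receptor share, and 10 to 78 as single libraries were left out. For shTet2 against shTet1, 827 became 1246 with array weights, 2178 with the block, 0 and 143 in the replicate subsets, 63 without the 3 deepest, 345 without the 4 of high receptor share, and 512 to 810 as single libraries were left out. The settings without the deepest libraries and without the libraries of high receptor share, and all those for Dppa3, were chosen after seeing the data. Depth limited Zim1 most, with 11 to 37 reads per library.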

Other observations

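Other genes that are known to be transcribed from the paternal chromosome were examined beside Peg3. Of 19 listed, 16 were measured and tested, and none passed in shTet1 or shTet2 against shScr or in shTet2 against shTet1 (limma), where 0.0718%, 0.39% and 4.24% of all genes passed. Without adjustment, 2, 1 and 3 had a p under 0.05, beside 11.8%, 11.6% and 15.7% of all genes. In shTet1, 12 of the 16 stood lower than in shScr and 4 higher, with a median difference of -0.17 against 0.01 over all genes tested. In shTet2 against shScr, 5 stood lower and 11 higher, with a median of 0.05. The shares of all genes that stood lower or higher were not counted. In shTet1, Peg10, a gene derived from a retrotransposon, was at -0.76 (limma adjusted p = 0.434), Magel2, a MAGE family gene, at -0.53 and Mcts2 at -0.45, while Peg12 was at 0.50. Magel2 (mean level 5.56 in shScr) and Peg12 (5.765) lay near the lowest value of 4.25.

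The 6 genes listed as partners of the PEG3 protein (Traf2, Siah1a, Siah1b, Bax, Trp53 and Ctnnb1) were all measured, and none passed in the 3 comparisons (limma, with 1, 0 and 0 at an unadjusted p under 0.05 beside the same shares of all genes). Their median difference was 0.07 in shTet1 and -0.03 in shTet2 against shScr.

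Among the cell type markers, 0 passed in shTet1 and 0 in shTet2 against shScr, and 1 passed in shTet2 against shTet1, where 4.24% of all genes did. It was the trophoblast gene Eomes, at 6.59 in shScr, 7.39 in shTet1 and 6.45 in shTet2, so that shTet1 stood higher than both (0.80 above shScr, limma adjusted p = 0.133). The other 3 trophoblast markers went the opposite way between shTet2 and shTet1 (Gata3 at 0.65, Cdx2 at 0.17 and Elf5 at 0.006). In shTet1 against shScr, Gata3 (-0.39) and Cdx2 (-0.35) stood lower and Elf5 (0.09) higher. The 4 primitive endoderm markers had lower means in shTet2 than in shScr (median difference -0.66, 3 of 4 at an unadjusted p under 0.05, beside 11.6% of all genes). All 4 were also lower in shTet1 than in shScr (median -0.26, 0 at an unadjusted p under 0.05, beside 11.8%). Of the 8 ESC markers, 7 had higher means in shTet1 than in shScr (median 0.23), and 8 had lower means in shTet2 than in shTet1 (median -0.34). Against shScr, 7 of the 8 ESC markers had lower means in shTet2 (median -0.15).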
